A study of Mus musculus with 70 samples.

Results

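The comparison concerned Ly6C-high monocytes of mice that were susceptible (SUS) after chronic social defeat stress (CSDS) and of unstressed control (CON) mice. Its members were the count columns labelled with the Ly6high cell type and the SUS or CON condition, which gave 6 SUS and 6 CON libraries, 12 of the 70 libraries in the series. C57BL/6J mice of 7 to 8 weeks were defeated daily by an aggressive CD-1 mouse over 10 days, and those that afterwards avoided a social target were classed as SUS, whereas those that did not were classed as resilient (RES). According to the study's methods, Ly6C-high monocytes were sorted from trunk blood after red cell lysis, whereas the source label of every library reads Brain; the methods were followed here. The labels tie no library to a litter, batch or day and do not give sex, and no genotype or drug was part of these groups. The question was how far the transcriptome of circulating Ly6C-high monocytes differed between SUS vs. CON mice, described by function and pathway across all genes.

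Ly6C-high monocytes are the short-lived, inflammatory class of blood monocytes. They leave the bone marrow through the chemokine receptor CCR2, enter inflamed tissue, and can become macrophages or dendritic-like cells there, or convert to the patrolling Ly6C-low class in blood. Sympathetic and glucocorticoid signals during stress are known to alter their release, and interferons, bacterial products and cytokines of the IL-6 family set much of their gene expression.

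The libraries held between 31816523 and 41005751 counts in CON and between 38936596 and 53028119 counts in SUS. Ly6c2, which encodes the antigen of the sort, ranged from 236 to 283 CPM in CON (median 247) and from 231 to 883 CPM in SUS libraries (median 374), and Ccr2 ranged from 1460.3 to 2400.1 CPM in CON (median 1945) and from 798 to 2977 CPM in SUS libraries (median 2160.3). Both genes were therefore present in every library. The 11 Ly6C-high markers together summed from 28786 to 35768 CPM in CON and from 32528 to 45425 CPM in SUS libraries, against from 2266 to 2685 CPM in CON and from 1454 to 3068 CPM in SUS libraries for the 13 Ly6C-low markers. Markers of T cells summed to at most 13.3 CPM in any library, and those of NK cells from 5.57 to 69.4 CPM in CON and from 2.21 to 24.9 CPM in SUS libraries. One library stood apart. SUS replicate 5 had the fewest genes with a count (15739, against 17577 to 20629 in the others), the highest Ly6c2 (883 CPM), the lowest Ccr2 (798 CPM) and the highest level of Actb, the gene of cytoplasmic actin (22820 CPM, against 7155 to 13098 CPM in the others). Its share of counts from red cell genes was 0.729%, against 0.0948% to 0.24% in the other SUS libraries, and for this reason results are given with and without it. CON replicate 4 lay apart from the other CON libraries on the second principal component, which held 12.1% of the variance.

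RNA of red cells moved with the groups. The 13 red cell markers, which include the globin genes Hba-a1 and Hbb-bs and the band 3 gene Slc4a1, took 0.0732% ± 0.0283 of counts in CON and 0.252% ± 0.239 in SUS libraries (SD, n = 6 each, exact two-sided permutation test p = 0.00433, adjusted p = 0.013 over 3 shares). The share was above every CON library in 5 of 6 SUS libraries. Summed red cell levels ran from 340.2 to 1162 CPM in CON and from 1072 to 8888 CPM in SUS libraries, 9 of 11 tested markers rose, and no marker was at 0 in all 12 libraries. The share of counts from the mitochondrial genome was 9.97% ± 1.25 in CON and 9.82% ± 2.33 in SUS libraries (adjusted p = 0.898, exact permutation test), and that of the ribosomal RNA-like loci Gm23935 and Gm26917 was 3.41% ± 2.85 and 7.04% ± 6.48 (adjusted p = 0.364, exact permutation test). B cell markers summed from 136 to 178 CPM in CON and from 80.7 to 178 CPM in SUS libraries, with 1 of 5 tested lower, and none of the tested markers of T cells, NK cells, endothelium or granulocytes other than neutrophils passed. Platelet markers summed from 56.5 to 84.8 CPM in CON and from 43.3 to 124 CPM in SUS libraries, and 2 of 13 rose. In these bulk libraries, fewer cells of a type and less RNA per cell cannot be told apart.

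**Figure D1:**
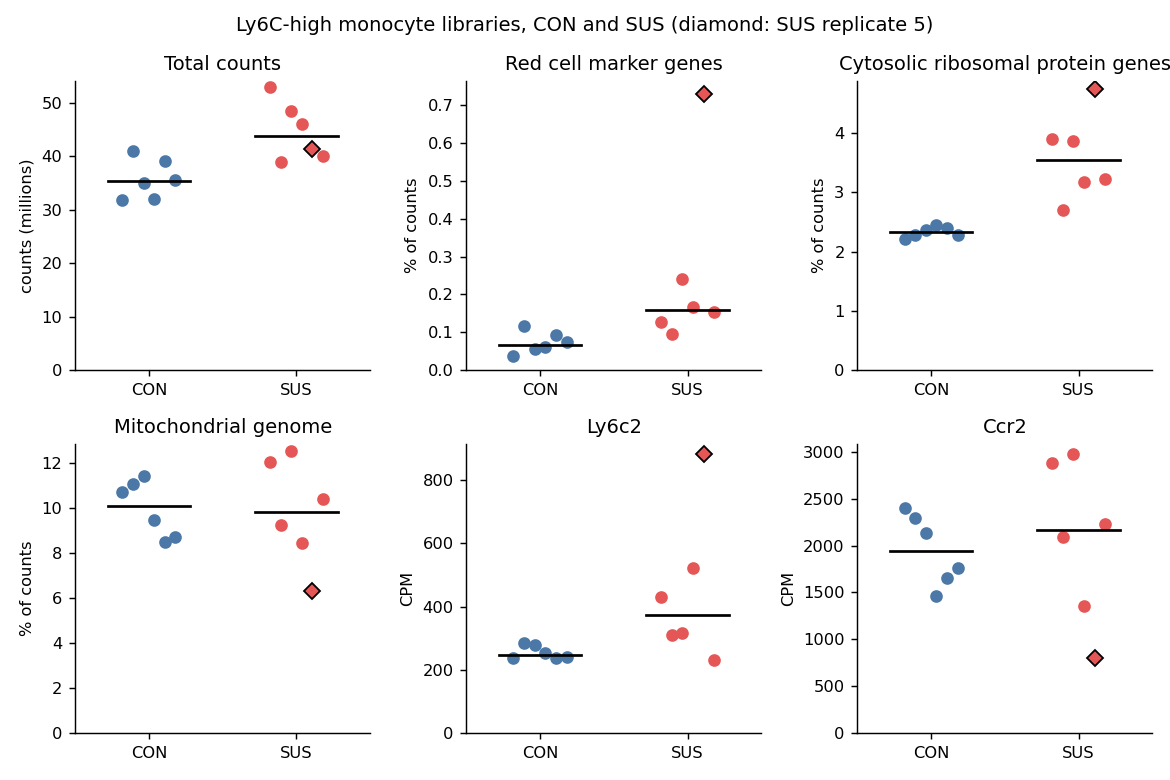
Total counts, shares of counts in percent and the CPM of the sort marker genes Ly6c2 and Ccr2 in the 6 CON and 6 SUS libraries, with a line at each group's median. SUS replicate 5 (diamond) has the highest red cell share at 0.729%, and the ribosomal protein share lies between 2.21% and 2.44% in CON and between 2.7% and 4.75% in SUS libraries.

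Across all genes, Ly6C-high monocytes of SUS mice differed widely from those of CON mice. Of 16955 genes tested with edgeR's quasi-likelihood test, 1488 rose (8.78%) and 651 fell (3.84%) at an adjusted p under 0.05, and 4498 had an unadjusted p under 0.05. When a log2 fold change above 1 or below -1 was also required, 387 genes rose (2.28%) and 198 fell (1.17%). The median log2 fold change of all genes was -0.05. Without SUS replicate 5, 956 genes rose and 462 fell, and 163 and 123 passed the fold threshold as well. The split between directions moved with the scaling. It was 1224 and 846 with DESeq2 size factors in edgeR, 1231 and 828 with upper-quartile factors, and 1620 and 1321 with DESeq2 itself. These scalings shifted the median of all genes by -0.061, -0.058 and -0.062. Among the 11320 genes with at least 10 counts in every library, 1444 rose and 977 fell.

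When the mean log2 level of 6 red cell genes was added to the model as a covariate, 1 gene rose and 1 fell. The gene that fell was Slamf7, a receptor gene of the SLAM family, with a log2 fold change of -2.31 (adjusted p = 0.0497). The medians of lysosomal, actin and proteasome genes were 0.26, 0.16 and 0.31 with this covariate, against 0.61, 0.54 and 0.67 without it. With a platelet covariate in its place, 40 genes rose and 5 fell. Because 5 of 6 SUS libraries lay above every CON library in the red cell share, this covariate and the condition cannot be told apart for most genes. The exception was SUS replicate 2, with a red cell share of 0.0948% in a CON range of 0.0383% to 0.118%.

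The change of a gene also went with its length and base composition. Among protein-coding genes, the median log2 fold change ran from 0.50 in the bin of 10 with the shortest summed exons (69 to 1704 bases) to -0.37 in the bin with the longest (9835 bases and more). In the shortest bin 283 of 1215 genes rose and 9 fell, whereas in the longest 27 of 1215 rose and 228 fell. By exonic GC content, the medians ran from -0.30 in the lowest of 5 bins to 0.24 in the highest. The length medians still ran from 0.38 to -0.29 without SUS replicate 5. In Ly6C-low monocytes the same bins ran from 0.16 to -0.05. Gene classes other than protein-coding mostly had negative medians, at -0.94 for 122 sense-intronic genes, -0.86 for 918 loci of the class TEC, whose transcripts still need experimental proof, and -0.68 for 807 antisense genes. They were -0.39 for lincRNA, -0.52 for processed transcripts, -0.70 for miRNA, and -0.63 for both snRNA and snoRNA genes. Processed pseudogenes, which resemble spliced mRNA, had a median of 0.32, and reads shared with their parent genes make their values uncertain. The libraries were made from total RNA with random priming, so unspliced RNA was counted where it overlapped an annotated gene. Its part in these medians was not tested. Because of the trends on length and GC content, results are also given after an offset that removes them from each library, fitted over protein-coding genes. With this offset 902 genes rose and 382 fell. What part these trends play in any single result was not tested beyond that.

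**Figure D2:**
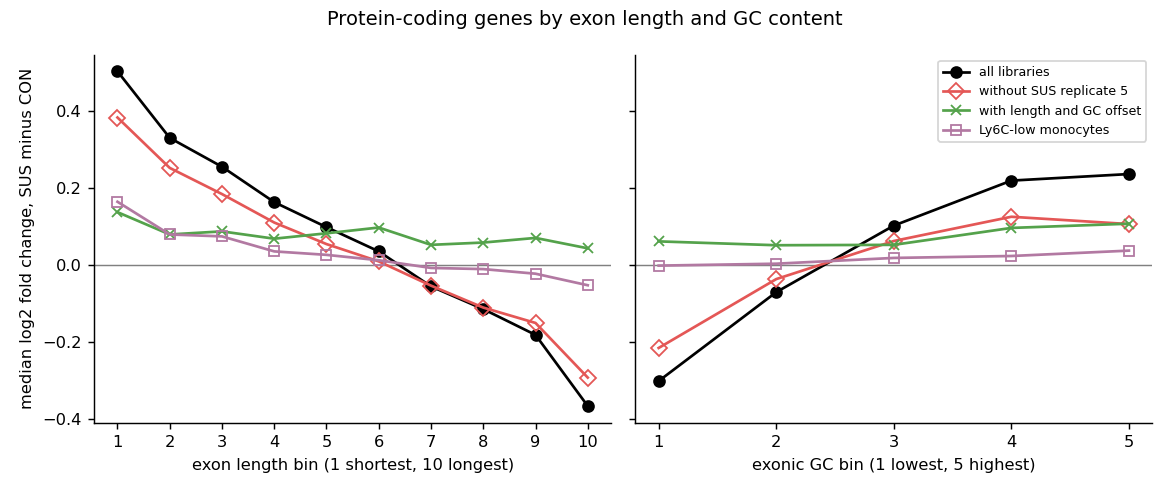
Median log2 fold change (SUS minus CON) of protein-coding genes in 10 bins of summed exon length and 5 bins of exonic GC content, for all libraries, without SUS replicate 5, with the length and GC offset fitted over protein-coding genes, and for Ly6C-low monocytes. The medians fall from 0.50 in the shortest to -0.37 in the longest bin and lie between 0.04 and 0.14 over the length bins with the offset.

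To describe the comparison by function, 58 lists of genes were read, which together held 1514 genes. Of these, 1425 were tested, 446 rose and 73 fell. The median of 45 lists was above 0. Counts are also given without SUS replicate 5 (where 5.48% of all genes rose and 2.65% fell) and with the length and GC offset, as a pair of those that rose and those that fell where both occurred. Unless stated, the offset is the one over protein-coding genes, which was added after seeing the data, whereas that over all genes was planned. Of 188 named genes that were called, 158 also passed with the offset over protein-coding genes. The other 30 did not, and not all of them are marked below. No chance level was computed for a list, and the shares over all genes above are only a loose background. Among protein-coding genes alone, 1289 of 12145 rose and 576 fell. In the bin of the shortest of these, 283 of 1215 rose, and in that of the longest, 228 of 1215 fell. The background of a list thus depends on the class and length of its genes.

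**Figure D3:**
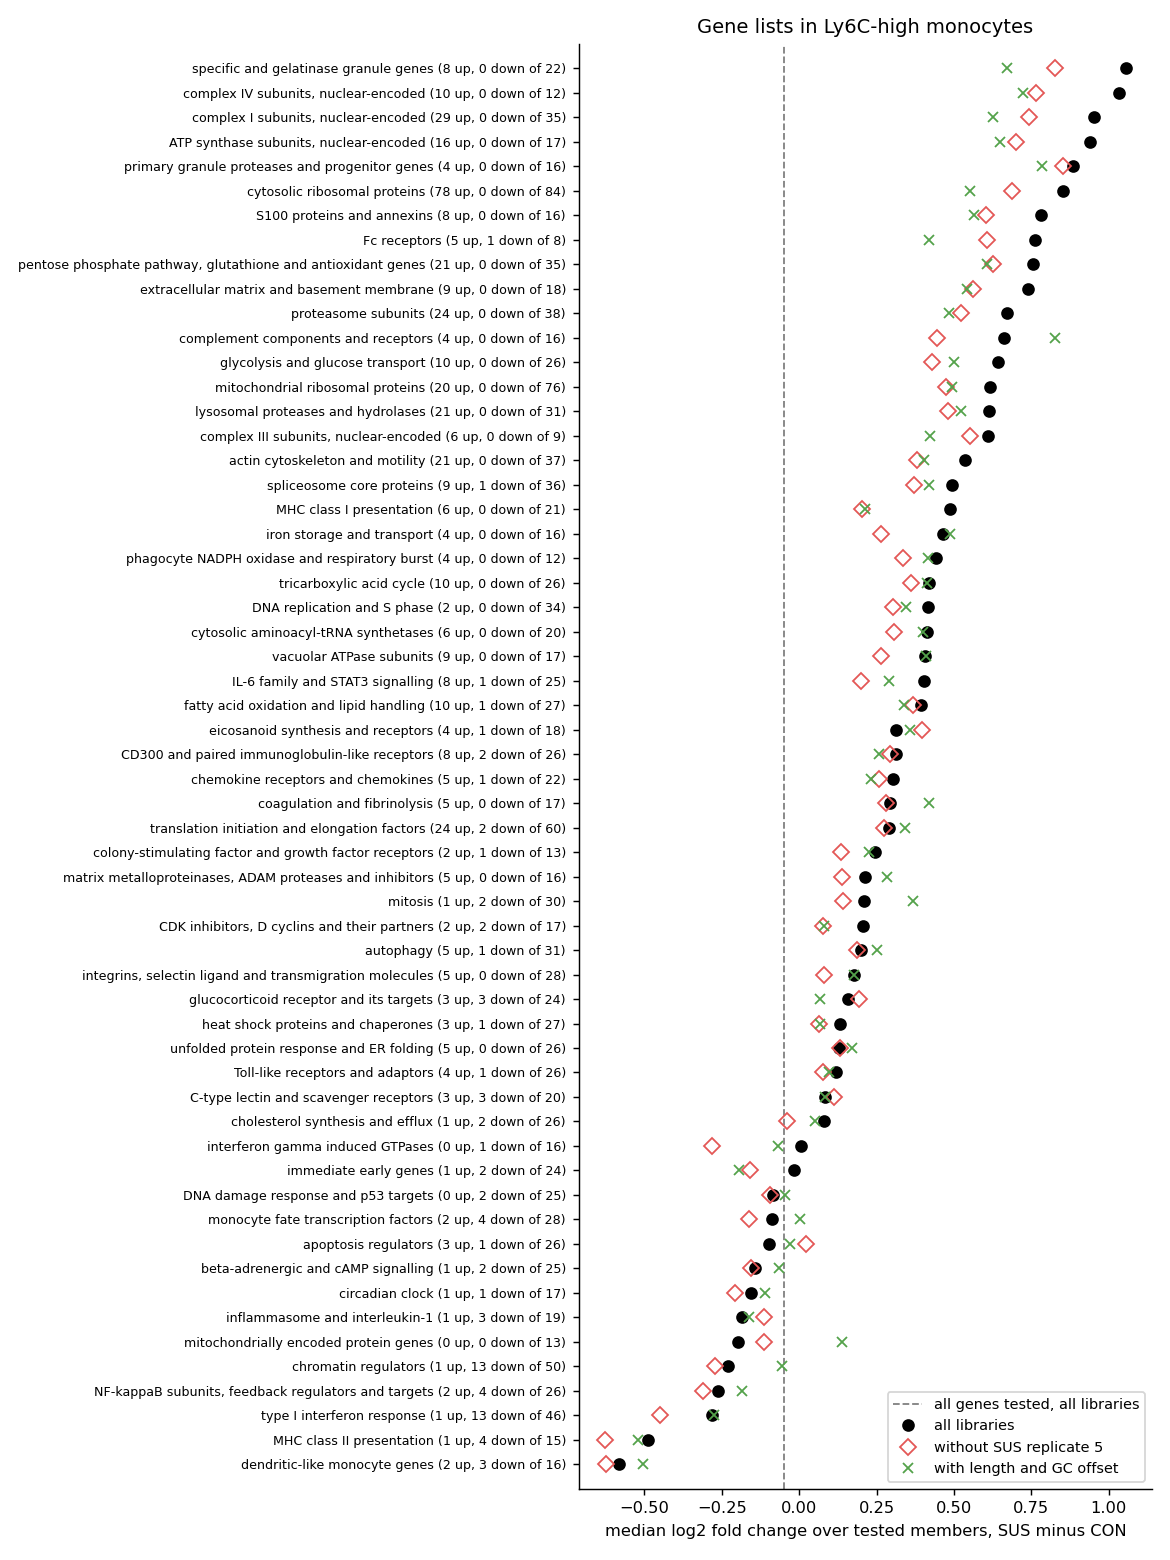
Median log2 fold change (SUS minus CON) over the tested members of 58 gene lists, for all libraries (filled circles), without SUS replicate 5 (diamonds) and with the length and GC offset fitted over protein-coding genes (crosses), with the median of all genes dashed. Names give the members that rose and fell of those tested; medians run from -0.58 for dendritic-like monocyte genes to 1.06 for specific and gelatinase granule genes.

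Part of the genes listed for IL-6 family and STAT3 signalling rose in SUS Ly6C-high monocytes. The list also holds other genes, such as Il4ra, which is not an IL-6 family receptor gene. The STAT3 pathway starts at IL-6 family receptors, and its target SOCS3 in turn shuts the receptor off. Of 25 tested members 8 rose and 1 fell, 8 and 1 without SUS replicate 5, and 8 and 1 with the length and GC offset. Pim1, a survival kinase induced by STAT factors, ranged from 38.1 to 44.2 CPM in CON (median 41.8) and from 67.6 to 165 CPM in SUS libraries (median 102) (log2 fold change 1.46 ± 0.22, adjusted p = 0.000636). Il4ra, the IL-4 and IL-13 receptor chain, ranged from 76.4 to 107 CPM in CON (median 89.9) and from 173 to 464 CPM in SUS libraries (median 288) (1.76 ± 0.28, adjusted p = 0.000931). The groups did not overlap in either gene. Here and below, list members were named by small p, a choice that favours such separation. Hp, the acute phase gene of haptoglobin, ranged from 245 to 373 CPM in CON (median 302) and from 613 to 1913 CPM in SUS libraries (median 979.7), again without overlap. Socs3 had a log2 fold change of 2.90 ± 0.41, and 2.67 without SUS replicate 5.

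The window before the RefSeq start of Socs3 is shown because this gene stands for the pathway and its window holds the letters of a STAT site. In GENCODE M21 the gene spans chr11:117966079-117970047, so the window lies within the gene as annotated there. The 250 bases before the RefSeq start (GRCm38.p6, chr11:117969367-117969616, minus strand) contain TTCNNNGAA, searched on both strands and set in capitals. These letters occur in 7.18% of 27025 promoter windows of this length and in 2 of 23 list members with a window.
Socs3: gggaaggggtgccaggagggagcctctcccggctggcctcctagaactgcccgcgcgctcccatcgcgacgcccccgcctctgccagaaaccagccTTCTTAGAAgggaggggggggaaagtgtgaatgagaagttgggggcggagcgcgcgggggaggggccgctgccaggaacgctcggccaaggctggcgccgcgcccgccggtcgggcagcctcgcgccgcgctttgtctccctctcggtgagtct
Other members that rose, Pim1 among them, had no such match or no window in the table.

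Glucocorticoid receptor genes and targets changed in both directions. Of 24 tested 3 rose and 3 fell, with a list median of 0.16, 2 and 1 without SUS replicate 5 and 2 and 3 with the offset. Fkbp5, a chaperone gene that glucocorticoids induce, ranged from 9.23 to 27.3 CPM in CON (median 17.1) and from 25.6 to 43.8 CPM in SUS libraries (median 32), with 4 SUS libraries above the CON range (0.87 ± 0.22, adjusted p = 0.0108). Anxa1, the annexin A1 gene, rose by 0.61 ± 0.15. Cd163, a hemoglobin scavenger receptor gene that glucocorticoids are also known to induce, moved the other way and ranged from 8.75 to 17.4 CPM in CON (median 10.2) and from 1.5 to 8.36 CPM in SUS libraries (median 3.27) (-1.46 ± 0.40, adjusted p = 0.0174). Nr3c1, the receptor gene itself, had -0.59 ± 0.19 (adjusted p = 0.0435). Nr3c1 and the further known targets Tsc22d3, Per1 and Dusp1 were picked after their values were seen, and these targets had log2 fold changes of 0.12, -0.002 and 0.02 and did not pass the test. Of 25 genes of beta-adrenergic and cAMP signalling 1 rose and 2 fell (1 and 1 without SUS replicate 5 and 1 and 1 with the offset), and Gnai2, which encodes an inhibitory G protein subunit, rose by 0.58 ± 0.15.

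Of 13 colony-stimulating factor and growth factor receptor genes 2 rose and 1 fell, 2 and 1 without SUS replicate 5 and 2 and 1 with the offset. Csf2rb2, a beta chain gene of the IL-3 receptor, ranged from 45.1 to 69.5 CPM in CON (median 51.7) and from 87.9 to 159 CPM in SUS libraries (median 114) without overlap (1.11 ± 0.20, adjusted p = 0.00177), and Csf2rb, the common beta chain gene, rose by 0.86 ± 0.19. These neighbouring genes are near-identical copies, so the split of reads between them is uncertain. Csf2ra, the GM-CSF binding chain gene, fell by 0.51 on the log2 scale (adjusted p = 0.00709).

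NF-kappaB targets and immediate early genes did not rise as groups. Among 26 NF-kappaB genes 2 rose and 4 fell (median -0.26, 1 and 4 without SUS replicate 5 and 2 and 5 with the offset), and among 24 immediate early genes 1 rose and 2 fell (median -0.02, 1 and 2 without SUS replicate 5 and 1 and 3 with the offset). Bcl3, a nuclear IkappaB family member, ranged from 25.2 to 52 CPM in CON (median 35.6) and from 68 to 163 CPM in SUS libraries (median 89.2) and rose without overlap (1.36 ± 0.23, adjusted p = 0.00144), whereas Nfkbie, an inhibitor gene of the pathway, fell by 0.72 on the log2 scale (adjusted p = 0.00527). Ier3 ranged from 0.54 to 2.15 CPM in CON (median 0.78) and from 1.82 to 21.9 CPM in SUS libraries (median 8.47), with 5 SUS libraries above the CON range, and rose by 3.46 ± 0.62. Jun, an AP-1 subunit gene, ranged from 53.2 to 69.5 CPM in CON (median 55.2) and from 24.7 to 43.1 CPM in SUS libraries (median 40) and lay below every CON library in all 6 SUS libraries (-0.68 ± 0.18, adjusted p = 0.0143).

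Some receptor genes for microbes, antibodies and complement rose. Of 26 Toll-like receptor and adaptor genes 4 rose and 1 fell, 4 and 2 without SUS replicate 5 and 4 and 1 with the offset. Lbp, which encodes the lipopolysaccharide binding protein, ranged from 1.52 to 8.44 CPM in CON (median 6.06) and from 11.9 to 33.5 CPM in SUS libraries (median 30.9) without overlap (2.27 ± 0.36, adjusted p = 0.000976). Myd88, the shared adaptor gene of these receptors, ranged from 77.6 to 113 CPM in CON (median 101) and from 147 to 377 CPM in SUS libraries (median 229), also without overlap (1.26 ± 0.24, adjusted p = 0.00206). Of 8 Fc receptor genes 5 rose and 1 fell, against 4 and 1 without SUS replicate 5 and 3 and 1 with the offset. Fcgr4, an activating receptor gene that marks the Ly6C-low class, ranged from 4.77 to 9.7 CPM in CON (median 6.65) and from 8.87 to 46.6 CPM in SUS libraries (median 29.4), with 5 SUS libraries above the CON range (2.05 ± 0.33, adjusted p = 0.000991). The 13 Ly6C-low markers, which do not include Fcgr4, did not rise as a group. None passed in either direction, 5 lay above 0 and 8 below, and their median log2 fold change was -0.375. Fcgr1 rose by 1.17 ± 0.21, Fcgr3 by 0.75 ± 0.13 and Fcer1g, the shared signalling chain gene, by 0.77 ± 0.17. The last pair did not pass with the offset (adjusted p = 0.0837 and 0.347).

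Of 26 members of the CD300 and paired immunoglobulin-like receptor families, which hold inhibitory and activating receptors, 8 rose and 2 fell, 7 and 1 without SUS replicate 5 and 6 and 1 with the offset. Siglece, an inhibitory sialic acid receptor gene, ranged from 15.5 to 31.1 CPM in CON (median 19.4) and from 36.8 to 73.1 CPM in SUS libraries (median 49.6) without overlap (1.39 ± 0.25, adjusted p = 0.00158). Pilra rose by 1.18 ± 0.23 and Cd300ld by 0.67 ± 0.15. Reads of these clustered receptor families can be shared between copies. Of 16 tested complement genes 4 rose and none fell, 5 without SUS replicate 5 and 6 with the offset. C5ar1, the receptor gene of the chemoattractant C5a, ranged from 5.24 to 16 CPM in CON (median 10) and from 20.7 to 47.9 CPM in SUS libraries (median 32.6) without overlap (1.71 ± 0.31, adjusted p = 0.00168). C5ar2, the neighbouring second C5a receptor gene, rose by 1.29 ± 0.27, and C4b by 3.35 ± 0.80. C3 ranged from 1258 to 1628 CPM in CON (median 1369.9) and from 1572 to 2953 CPM in SUS libraries (median 1923), with 5 SUS libraries above the CON range (0.58 ± 0.16).

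Coagulation genes rose in 5 of 17 cases and fell in none (4 and 0 without SUS replicate 5 and 4 and 1 with the offset), with Pros1, which encodes the anticoagulant protein S, at 0.66 ± 0.17. Of 20 C-type lectin and scavenger receptor genes 3 rose and 3 fell, 2 and 3 without SUS replicate 5 and 4 and 3 with the offset. Clec4e, the Mincle gene, rose by 1.28 ± 0.28, and Scarb1, the high density lipoprotein receptor gene, by 0.66 ± 0.17. Mrc1, the mannose receptor gene, ranged from 41.9 to 77 CPM in CON (median 63.2) and from 2.41 to 28 CPM in SUS libraries (median 9.99) without overlap (-2.23 ± 0.45, adjusted p = 0.00336). In the inflammasome list 1 member rose and 3 fell of 19, 0 and 3 without SUS replicate 5 and 0 and 4 with the offset. Naip6 and Naip5, paralogous sensors of bacterial flagellin, fell by 0.82 and 0.64 on the log2 scale, and their near-identical copies make the division of reads uncertain.

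Many effector genes of phagocytes rose. Of 16 S100 and annexin genes 8 rose, of 31 lysosomal protease and hydrolase genes 21, of 22 specific and gelatinase granule genes 8, of 16 primary granule genes 4 and of 12 NADPH oxidase genes 4, and no member of these 5 lists fell. Without SUS replicate 5 the counts were 7, 16, 5, 3 and 3, and with the length and GC offset they were 3, 15, 6, 3 and 2, where 1 specific granule gene fell. S100a11, a small calcium binding protein gene, ranged from 76.6 to 104 CPM in CON (median 82.3) and from 109 to 342 CPM in SUS libraries (median 213) without overlap (1.31 ± 0.23, adjusted p = 0.00145). S100a6 and Anxa2 rose by 1.06 ± 0.22 and 0.95 ± 0.20, and S100a6 did not pass with the offset (adjusted p = 0.0679). Ctsd, the gene of the aspartic protease cathepsin D, ranged from 38.7 to 82.2 CPM in CON (median 59.8) and from 94.2 to 259 CPM in SUS libraries (median 164) without overlap (1.52 ± 0.28, adjusted p = 0.00177). Ctsb, the cathepsin B gene, ranged from 751 to 934 CPM in CON (median 865) and from 1112 to 1783 CPM in SUS libraries (median 1338), again without overlap (0.70 ± 0.13). Lgmn, which encodes an asparaginyl endopeptidase, rose by 0.88 ± 0.17 and Lamp1, a lysosomal membrane protein gene, by 0.61 ± 0.12. Lamp1 did not pass with the offset (adjusted p = 0.0782). Of 17 vacuolar ATPase genes, whose products acidify the lysosome, 9 rose, 7 without SUS replicate 5 and 6 with the offset, led by Atp6v1g1 (1.04 ± 0.19).

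Cyba, the p22phox subunit gene of the NADPH oxidase, ranged from 217 to 274 CPM in CON (median 253) and from 355 to 989 CPM in SUS libraries (median 473) without overlap, and its highest value belonged to SUS replicate 5 (1.07 ± 0.20, and 0.77 without that library). Ncf4 and Rac2 rose by 0.99 ± 0.23 and 0.74 ± 0.18, and neither passed with the offset (adjusted p = 0.0948 and 0.0609). Among granule genes Slpi, a protease inhibitor gene, rose by 1.66 ± 0.30, Serpinb1a by 1.10 ± 0.25 and Srgn, the granule proteoglycan gene, by 0.84 ± 0.21. Metalloproteinase list members rose in 5 of 16 cases (4 without SUS replicate 5 and 4 with the offset), Mmp19 by 1.75 ± 0.38 and Bsg, the gene of the metalloproteinase inducer basigin, by 0.95 ± 0.20. Neutrophil markers, of which none of 8 tested passed in either direction (median log2 fold change 1.12), summed from 343 to 747 CPM in CON and from 414 to 1506 CPM in SUS libraries, and progenitor markers summed from 72.3 to 103 CPM in CON and from 65.5 to 187 CPM in SUS libraries. Their part in the granule genes was not tested. Of 18 eicosanoid genes 4 rose and 1 fell, 2 and 2 without SUS replicate 5 and 3 and 2 with the offset. Pla2g7, which encodes the platelet activating factor hydrolase, ranged from 119 to 148 CPM in CON (median 129) and from 206 to 508 CPM in SUS libraries (median 334) without overlap (1.38 ± 0.20, adjusted p = 0.000471), and Alox5ap rose by 0.88 ± 0.16. Alox5ap did not pass with the offset (adjusted p = 0.0844). Hpgd, whose enzyme degrades prostaglandins, ranged from 162 to 263 CPM in CON (median 206) and from 35.9 to 184 CPM in SUS libraries (median 59) (-1.46 ± 0.34, adjusted p = 0.00761), with SUS replicate 6 within the CON range.

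**Figure D4:**
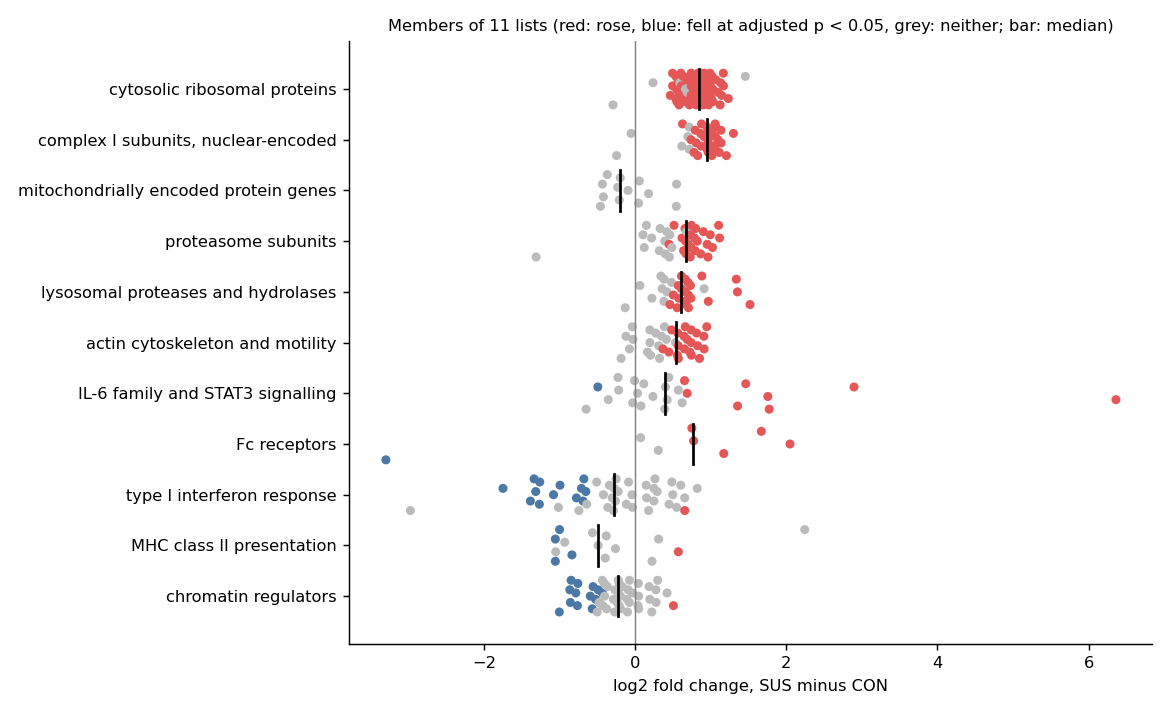
Log2 fold change (SUS minus CON) of every tested member of 11 gene lists, in red where the gene rose, in blue where it fell and in grey where neither passed, with a bar at each list's median. Cytosolic ribosomal protein genes lie around a median of 0.85, mitochondrially encoded genes around -0.20 and type I interferon genes around -0.28.

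Part of the interferon-response genes fell. Type I interferon normally induces these genes together. Of 46 tested members 13 fell and 1 rose, with a median of -0.28. Without SUS replicate 5, 12 fell and 1 rose (median -0.45), and with the length and GC offset 5 fell and 0 rose (median -0.28). With the offset fitted over all genes instead, 2 fell and 0 rose (median -0.1). Ifi203, a nucleic acid sensing family member, ranged from 250.0 to 516 CPM in CON (median 344) and from 93.9 to 193 CPM in SUS libraries (median 137) without overlap (-1.34 ± 0.25, adjusted p = 0.00176). Mx2, of the antiviral GTPase family but annotated as a polymorphic pseudogene, ranged from 28.8 to 47.4 CPM in CON (median 39.2) and from 8.51 to 22.2 CPM in SUS libraries (median 16.1), also without overlap (-1.26 ± 0.27, adjusted p = 0.00428). Parp14 had -0.65 ± 0.15, and it did not pass with the offset (adjusted p = 0.111). Ifitm3, the membrane protein gene that rose (0.66 ± 0.16), had 0.16 with the offset (adjusted p = 0.571). Other well-known members, picked here after their values were seen, did not pass the test, among them Isg15 (0.15, adjusted p = 0.824), Irf7 (0.15, adjusted p = 0.779) and Oasl2 (-0.04, adjusted p = 0.954). Of 16 interferon gamma induced GTPase genes 1 fell and none rose, with the same counts without SUS replicate 5 and with the offset. This was Gbp9, which ranged from 45.7 to 78.9 CPM in CON (median 64.2) and from 19.8 to 31 CPM in SUS libraries (median 26) without overlap (-1.29 ± 0.22, adjusted p = 0.00144). Cxcl10, an interferon-induced chemokine gene, ranged from 7.85 to 10.4 CPM in CON (median 8.85) and from 0.16 to 4.98 CPM in SUS libraries (median 1.99) without overlap (-2.08 ± 0.56, adjusted p = 0.0165).

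Promoter windows of falling interferon genes are shown because they carry the letters of the interferon response site. The letters are GAAA, any 2 bases and GAAA again, searched on both strands and set in capitals. They occur in the 250 bases before the RefSeq start in 14 of 33 list members with a window (42.4%), in 4 of 10 members that fell with a window, and in 3.04% of all 27025 windows. The members were chosen for holding the site, Ifit1 (GRCm38.p6, chr19:34640639-34640888, plus strand) and Slfn8 (chr11:83020811-83021060, minus strand). Ifit1, an RNA binding antiviral protein gene, had a log2 fold change of -0.99 ± 0.24 and Slfn8, a Schlafen family gene, -0.78 ± 0.21.
Ifit1: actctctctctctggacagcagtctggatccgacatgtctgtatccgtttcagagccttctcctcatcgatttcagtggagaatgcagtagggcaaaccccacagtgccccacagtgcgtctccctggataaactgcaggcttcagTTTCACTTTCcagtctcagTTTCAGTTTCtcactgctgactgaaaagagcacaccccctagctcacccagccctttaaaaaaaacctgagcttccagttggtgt
Slfn8: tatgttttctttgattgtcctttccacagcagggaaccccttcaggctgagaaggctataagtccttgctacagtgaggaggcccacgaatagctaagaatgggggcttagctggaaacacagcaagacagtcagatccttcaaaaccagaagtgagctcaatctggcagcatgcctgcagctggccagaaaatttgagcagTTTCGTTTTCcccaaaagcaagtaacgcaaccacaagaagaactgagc
The window of Ifit1 holds the site 2 times, and in both genes it is read on the opposite strand.

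Genes of antigen presentation by MHC class II fell in part, whereas no class I gene fell in the fit of all libraries. MHC class II molecules show peptides to CD4+ T cells, and CD74 is their chaperone. Of 15 tested class II genes 4 fell and 1 rose, with the same counts without SUS replicate 5, and 4 fell and 0 rose with the offset. H2-Aa, the alpha chain gene of I-A, ranged from 59.7 to 119 CPM in CON (median 67.8) and from 23.4 to 55.3 CPM in SUS libraries (median 36.9) without overlap (-1.05 ± 0.21, adjusted p = 0.00287). H2-Ab1, its beta chain gene, fell by 0.84 on the log2 scale (adjusted p = 0.0123). Ctss, the cathepsin S gene whose protease trims the class II chaperone, was the member that rose (0.57 ± 0.12), and H2-DMa and H2-DMb1, which load peptides, had 0.31 and 0.22 and did not pass; this pair was picked after its values were seen. Of 16 tested dendritic-like monocyte genes 2 rose and 3 fell (0 and 3 without SUS replicate 5 and 1 and 3 with the offset), and of these Slamf7 (chr1:171632403-171653035, GRCm38) ranged from 22.3 to 49 CPM in CON (median 44.9) and from 4.99 to 13.9 CPM in SUS libraries (median 7.71) without overlap (-2.28 ± 0.30, adjusted p = 0.000209). Markers of dendritic cells moved with these genes. The marker list and the dendritic-like list share members, so their moving together was partly fixed by the choice of genes. Of 10 tested dendritic cell markers 2 fell and none rose, and the list of 11 summed from 215 to 261 CPM in CON and from 93.9 to 158 CPM in SUS libraries, without overlap. Their part in the class II and dendritic-like results was not tested. Of 21 class I genes 6 rose and none fell, 3 rose without SUS replicate 5, and 2 rose and 1 fell with the offset. They were led by the immunoproteasome subunit genes Psmb10 (1.10 ± 0.26) and Psmb8 (0.87 ± 0.21). With the red cell covariate the class I median was -0.02 and the class II median -0.53.

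The class II windows are shown because their shared Y box, ATTGG on either strand, is known to help drive these genes together. H2-Aa (GRCm38.p6, chr17:34287824-34288073, minus strand) and H2-Eb1 (chr17:34305617-34305866, plus strand, log2 fold change -1.05 ± 0.29) were the falling members with a window, both held the letters, and 7 of 11 list members with a window did, against 34.5% of all windows.
H2-Aa: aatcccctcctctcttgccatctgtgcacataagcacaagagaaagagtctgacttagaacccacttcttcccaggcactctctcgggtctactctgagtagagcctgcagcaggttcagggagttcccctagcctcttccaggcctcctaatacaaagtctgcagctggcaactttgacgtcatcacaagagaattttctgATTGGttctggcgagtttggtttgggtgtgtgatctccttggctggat
H2-Eb1: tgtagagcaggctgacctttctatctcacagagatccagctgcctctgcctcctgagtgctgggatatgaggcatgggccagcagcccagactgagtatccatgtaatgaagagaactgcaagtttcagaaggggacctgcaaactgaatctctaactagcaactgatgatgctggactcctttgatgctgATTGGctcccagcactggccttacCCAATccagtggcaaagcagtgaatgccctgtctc
Such short letters are common, and a match is a description of the sequence only.

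Many genes of migration and the cytoskeleton rose. Of 37 actin and motility genes 21 rose and none fell, 17 without SUS replicate 5 and 12 with the offset. Cfl1, whose product severs actin filaments, ranged from 567 to 691 CPM in CON (median 648) and from 809 to 1678 CPM in SUS libraries (median 1119) without overlap (0.81 ± 0.16, adjusted p = 0.00231). Arpc3, an Arp2/3 complex subunit gene, rose by 0.74 ± 0.14, and Myl6, a myosin light chain gene, by 0.95 ± 0.20. Of 22 chemokine genes and receptors 5 rose and 1 fell, 3 and 1 without SUS replicate 5 and 4 and 2 with the offset. Ccr1, a receptor gene for CCL3 and CCL5, ranged from 14.1 to 24.7 CPM in CON (median 18.3) and from 55.1 to 169 CPM in SUS libraries (median 66.9) without overlap (2.26 ± 0.35, adjusted p = 0.000912), whereas Ccr2 had 0.08 ± 0.24 (adjusted p = 0.88). Ccl9 rose by 0.57 ± 0.12. Among adhesion genes 5 of 28 rose and none fell, 5 and 1 without SUS replicate 5 and 5 and 0 with the offset. Itgb7, an integrin beta chain gene, rose by 0.78 ± 0.18 and Fermt3, the kindlin-3 gene, by 0.72 ± 0.19. Of 18 extracellular matrix genes 9 rose and none fell, 6 without SUS replicate 5 and 8 with the offset. Tgfbi, a secreted matrix protein gene that TGF-beta induces, ranged from 879 to 1198 CPM in CON (median 1030.3) and from 1387 to 3135 CPM in SUS libraries (median 2081) without overlap (1.07 ± 0.19, adjusted p = 0.00144), and the galectin genes Lgals3 and Lgals1 rose by 0.94 ± 0.19 and 1.22 ± 0.26.

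**Figure D5:**
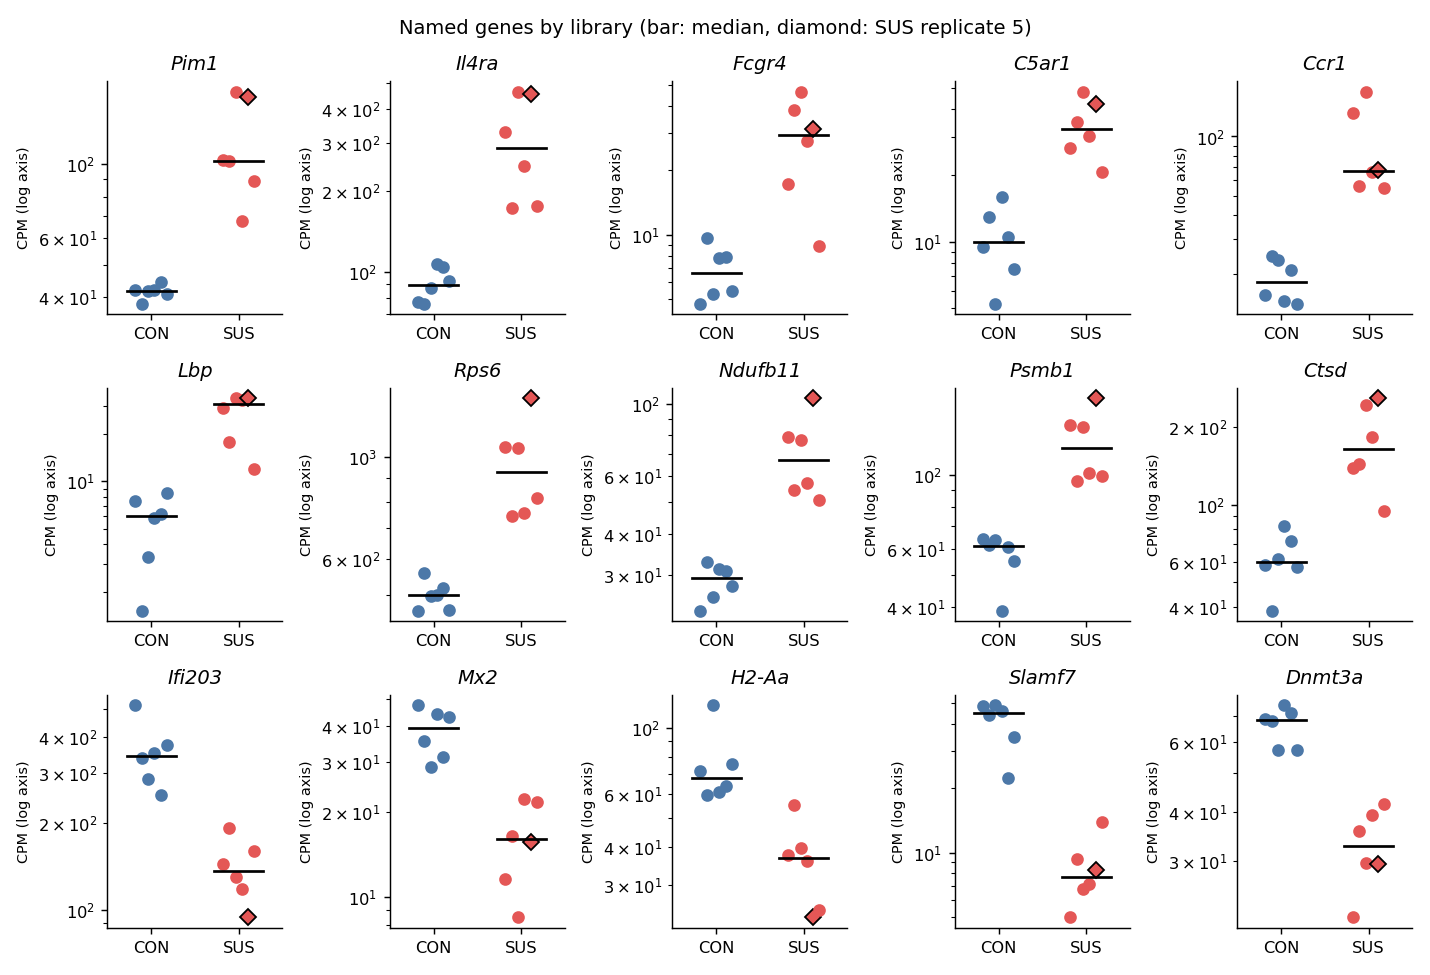
CPM on a log axis of 15 named genes in the 6 CON and 6 SUS libraries, with a line at each group's median and SUS replicate 5 as a diamond. Pim1, Il4ra, C5ar1, Ccr1, Lbp, Rps6, Ndufb11, Psmb1 and Ctsd lie higher in every SUS library than in any CON library, Fcgr4 in 5 of 6, and Ifi203, Mx2, H2-Aa, Slamf7 and Dnmt3a lie lower in every SUS library.

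Most respiratory chain genes encoded in the nucleus rose. The respiratory chain passes electrons from complex I through complexes III and IV to oxygen, and the ATP synthase uses the resulting proton gradient. Of 35 complex I subunit genes 29 rose, of 9 in complex III 6, of 12 in complex IV 10 and of 17 in the ATP synthase 16, and none fell. Their medians were 0.95, 0.61, 1.03 and 0.94. Without SUS replicate 5 the counts were 22, 4, 7 and 14, and with the length and GC offset 12, 1, 5 and 12, with medians of 0.63, 0.42, 0.72 and 0.65. With the red cell covariate the medians were 0.50, 0.36, 0.56 and 0.40, and what part red cell RNA had in these results was not tested. These genes are short, with median summed exon lengths between 1298 and 1972 bases. Ndufb11, an accessory complex I subunit gene, ranged from 23.3 to 32.8 CPM in CON (median 29.3) and from 50.6 to 104 CPM in SUS libraries (median 67.3) without overlap (1.30 ± 0.18, adjusted p = 0.000317). Cox4i1 of complex IV ranged from 92.1 to 111 CPM in CON (median 105) and from 156 to 403 CPM in SUS libraries (median 208), also without overlap (1.17 ± 0.20). Atp5j, a stalk subunit gene of the ATP synthase, ranged from 49.3 to 68.9 CPM in CON (median 51.1) and from 84.2 to 146 CPM in SUS libraries (median 103), again without overlap (0.99 ± 0.15, adjusted p = 0.000508).

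The 13 protein genes of the mitochondrial genome, whose products sit in the same complexes, did not rise with them. None of the 13 passed the test in either direction, and their median was -0.20, against 1.07 with an offset fitted over all genes and 0.14 with that fitted over protein-coding genes, so their direction depended on that setting. In the fit that left out SUS replicate 5, 1 of them rose, with the offset over protein-coding genes 2 did, and with that over all genes 4 did. mt-Co1 ranged from 2305 to 3629.8 CPM in CON (median 2935) and from 2271 to 4383 CPM in SUS libraries (median 3359) (0.18 ± 0.20, adjusted p = 0.625), and mt-Nd5 ranged from 955 to 1386 CPM in CON (median 1138) and from 481 to 1281 CPM in SUS libraries (median 838) (-0.46 ± 0.21, adjusted p = 0.162). The groups overlapped in both genes.

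Part of the carbon metabolism and redox genes also rose. Of 26 glycolysis genes 10 rose and none fell, 9 without SUS replicate 5 and 10 with the offset. Ldha, the lactate dehydrogenase A gene, ranged from 91.2 to 115 CPM in CON (median 100.2) and from 137 to 411 CPM in SUS libraries (median 214) without overlap (1.20 ± 0.22, adjusted p = 0.00168), and Pgk1, Pgam1 and Eno1 rose by 0.99 ± 0.19, 0.90 ± 0.18 and 0.97 ± 0.20. Of 26 tricarboxylic acid cycle genes 10 rose (6 without SUS replicate 5 and 8 with the offset), and Mdh2, the mitochondrial malate dehydrogenase gene, ranged from 68.7 to 91.7 CPM in CON (median 76.6) and from 109 to 258 CPM in SUS libraries (median 152) without overlap (1.09 ± 0.19). Of 35 pentose phosphate, glutathione and antioxidant genes 21 rose and none fell, 17 without SUS replicate 5 and 14 with the offset. Sod1, the cytosolic superoxide dismutase gene, ranged from 93.2 to 137 CPM in CON (median 108) and from 159.7 to 314 CPM in SUS libraries (median 230.5) without overlap (1.02 ± 0.17, adjusted p = 0.00121), Mgst1 rose by 0.84 ± 0.11 and Gpx3 by 1.61 ± 0.26. Of 27 fatty acid genes 10 rose and 1 fell, 3 and 0 without SUS replicate 5 and 5 and 0 with the offset. Dgat2 and Plin3, genes of triglyceride storage, rose by 1.76 ± 0.33 and 0.88 ± 0.20. In cholesterol synthesis and efflux 1 of 26 rose and 2 fell (0 and 2 without SUS replicate 5 and 2 and 1 with the offset), and Apoe ranged from 738 to 2069 CPM in CON (median 1139) and from 1029 to 1767 CPM in SUS libraries (median 1342) (0.15 ± 0.20, adjusted p = 0.691). Of 16 iron genes 4 rose, among them the ferritin heavy chain gene Fth1 (0.79 ± 0.18) and the heme oxygenase gene Hmox1 (0.85 ± 0.21), 2 did without SUS replicate 5 and 1 with the offset.

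Cytosolic ribosomal protein genes rose nearly throughout. Of 86 members 84 were tested, 78 rose and none fell, with a median log2 fold change of 0.85. Without SUS replicate 5, 77 of 84 rose (median 0.69), and with the length and GC offset 43 did (median 0.55). With the red cell covariate the median was 0.42 and no member passed. The scaling did not change the direction, since 78 rose with DESeq2 size factors as well. Rpl6, a large subunit gene, ranged from 387 to 432 CPM in CON (median 398) and from 594 to 1013 CPM in SUS libraries (median 731) without overlap (0.89 ± 0.15, adjusted p = 0.00118). Rps6, whose small subunit protein is phosphorylated downstream of mTORC1, ranged from 464 to 559 CPM in CON (median 500.4) and from 747 to 1344 CPM in SUS libraries (median 931), again without overlap (0.94 ± 0.15, adjusted p = 0.00118). Rpl32 and Rps20 rose by 0.98 ± 0.17 and 1.12 ± 0.19, and Rpl32 did not pass with the offset (adjusted p = 0.0702). Ribosomal protein genes have many processed pseudogenes, so some of their reads can be assigned elsewhere.

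The first bases of some of these genes are shown because ribosomal protein mRNAs are known for starting with a pyrimidine tract, the TOP motif, through which their translation is controlled together. A C at the RefSeq start followed by at least 4 pyrimidines was found in 14 of 65 members with a window (21.5%), in 2.49% of all windows, and in 0 of 68 mitochondrial ribosomal protein genes and 0 of 32 proteasome genes with a window. Annotated starts can be off by some bases, so members without a match are not thereby without the motif. In the 20 bases from the start (GRCm38.p6) the opening pyrimidines are in capitals, for Rps6 (chr4:86857348-86857367, minus strand), Rpl15 (chr14:18270967-18270986, minus), Rpl35 (chr2:39005112-39005131, minus) and Rps10 (chr17:27635225-27635244, minus).
Rps6: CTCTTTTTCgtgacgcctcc
Rpl15: CTTCCTTTCCTCTggcggca
Rpl35: CTCTTTCTCTCgaaccaggc
Rps10: CTTCCTTTCCagcctccgcc
Rpl15, Rpl35 and Rps10 had log2 fold changes of 0.75 ± 0.18, 1.00 ± 0.17 and 0.84 ± 0.17.

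Other parts of protein production and turnover rose less completely. Of 60 translation factor genes 24 rose and 2 fell, 19 and 0 without SUS replicate 5 and 15 and 0 with the offset. Eif2b2, a subunit gene of the eIF2B exchange factor, ranged from 12.3 to 22.9 CPM in CON (median 18) and from 28.8 to 85.3 CPM in SUS libraries (median 39) without overlap, with its highest value in SUS replicate 5 (1.35 ± 0.23, and 1.05 without that library). Eif3k and Eif6 rose by 0.98 ± 0.18 and 1.16 ± 0.22. Of 20 aminoacyl-tRNA synthetase genes 6 rose (4 without SUS replicate 5 and 4 with the offset), Qars and Aars by 0.95 ± 0.18 and 1.18 ± 0.23. Mitochondrial ribosomal protein genes rose in 20 of 76 cases, in 10 without SUS replicate 5 and in 10 with the offset. Of 38 proteasome subunit genes 24 rose and none fell, 20 without SUS replicate 5 and 13 with the offset. Psmb1, a core subunit gene, ranged from 39.1 to 64.1 CPM in CON (median 61.1) and from 96 to 169.6 CPM in SUS libraries (median 120.0) without overlap (1.12 ± 0.18, adjusted p = 0.00122), and Psma5 and Psmd4 rose by 0.96 ± 0.17 and 0.82 ± 0.17. Chaperones were mostly not called, with 3 that rose and 1 that fell of 27 (2 and 1 without SUS replicate 5 and 3 and 2 with the offset), and Cct5 rose by 0.59 ± 0.12. In the unfolded protein response 5 of 26 rose and none fell (3 and 0 without SUS replicate 5 and 3 and 1 with the offset), and the risers included the transcription factor gene Xbp1 (0.78 ± 0.15) and the disulfide isomerase gene P4hb (1.02 ± 0.20). Of 31 autophagy genes 5 rose and 1 fell, 4 and 1 without SUS replicate 5 and 3 and 0 with the offset.

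Part of the chromatin regulators fell, and their median length was the largest of the 58 lists. Of 50 members 13 fell and 1 rose, with a median of -0.23 and a median summed exon length of 10614 bases. In the fit that left out SUS replicate 5, 11 fell and 0 rose. With the length and GC offset 8 fell and 3 rose, and the median was -0.06. Dnmt3a, a DNA methyltransferase gene, ranged from 57.1 to 74.3 CPM in CON (median 68.1) and from 21.6 to 41.7 CPM in SUS libraries (median 32.8) without overlap (-1.002 ± 0.17, adjusted p = 0.00144, and -0.74 with the offset, adjusted p = 0.00436). Kmt2c, a histone H3 lysine 4 methyltransferase gene, ranged from 297 to 407 CPM in CON (median 355) and from 95.4 to 263 CPM in SUS libraries (median 204), also without overlap (-0.86 ± 0.17, adjusted p = 0.00236). Kmt2a and Kmt2e of the same family had -0.85 ± 0.18 and -0.76 ± 0.17. Spliceosome core genes, which are shorter, went the other way, with 9 that rose and 1 that fell of 36 (6 and 0 without SUS replicate 5 and 9 and 0 with the offset), among them Snrpd2 (1.20 ± 0.26) and Eftud2 (0.62 ± 0.14).

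Of 28 transcription factors of monocyte fate 2 rose and 4 fell, 0 and 4 without SUS replicate 5 and 1 and 2 with the offset. Of these no member passed the test in every fit that left out 1 library. Zeb2, a repressor gene that monocytes need, ranged from 1065 to 1295 CPM in CON (median 1208) and from 389 to 1056 CPM in SUS libraries (median 780.3) without overlap (-0.69 ± 0.19, adjusted p = 0.0178) but had 0.02 with the offset (adjusted p = 0.937), and Spi1, the PU.1 gene, had 0.53 ± 0.15 (adjusted p = 0.0228). The clock list had 1 rising and 1 falling member of 17, 1 and 1 without SUS replicate 5 and 1 and 0 with the offset. Nfil3, a transcription factor gene, ranged from 37.8 to 49.6 CPM in CON (median 38.3) and from 70.3 to 135 CPM in SUS libraries (median 82.2) without overlap and rose by 1.23 ± 0.22 (adjusted p = 0.00145).

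Cell cycle genes were mostly not called. Of 34 DNA replication genes 2 rose and none fell (1 rose without SUS replicate 5 and 1 with the offset), and Pcna ranged from 37.6 to 49.9 CPM in CON (median 41.8) and from 41.5 to 58.4 CPM in SUS libraries (median 53) (0.28 ± 0.15, adjusted p = 0.254). Of 30 mitosis genes 1 rose and 2 fell, 0 and 2 without SUS replicate 5 and 0 and 0 with the offset. Kif23, a kinesin gene of cytokinesis, ranged from 21.2 to 34.2 CPM in CON (median 23.4) and from 9.99 to 19.1 CPM in SUS libraries (median 14.2) without overlap (-0.91 ± 0.22, adjusted p = 0.00815, and 0.0643 with the offset), and Racgap1, its partner gene, had -0.61 ± 0.17. Of 17 CDK inhibitor and D cyclin genes and their partners 2 rose and 2 fell, 2 and 1 without SUS replicate 5 and 3 and 1 with the offset, and Cdk4, a kinase gene of cell cycle entry, rose by 0.90 ± 0.22. DNA damage genes fell in 2 of 25 cases and rose in none (2 fell without SUS replicate 5 and 1 with the offset), with Atm, a damage kinase gene, at -1.005 ± 0.28 (adjusted p = 0.0714 with the offset). Among apoptosis regulators 3 of 26 rose and 1 fell (3 and 0 without SUS replicate 5 and 3 and 0 with the offset), and the pro-apoptotic genes Bak1 and Bad rose by 1.03 ± 0.24 and 0.90 ± 0.23.

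Outside the lists, only protein-coding genes that passed in every fit without 1 library and did not overlap between the groups were considered. Those of the largest change included Gcnt2, Sema6b, Tgm1, Ptgfrn, C1rl and Amotl2 among those that rose. The rises also included the erythroid genes Slc4a1 and Car2, both red cell markers, and Fam213a, a redox gene, whose log2 fold change of 3.31 ± 0.80 was 0.65 with the red cell covariate. Gcnt2, a glycosyltransferase gene that builds branched sugar chains, ranged from 11.5 to 23.9 CPM in CON (median 14) and from 50.9 to 196 CPM in SUS libraries (median 97.8) without overlap (2.92 ± 0.38, adjusted p = 0.000209). Sema6b, a semaphorin gene, rose by 2.74 ± 0.55, Tgm1, a transglutaminase gene, by 2.69 ± 0.51, and Ptgfrn, a tetraspanin partner gene, by 2.08 ± 0.34. C1rl, a complement C1r-like protease gene, and Amotl2, an angiomotin family gene, rose by 2.07 ± 0.35 and 1.79 ± 0.45. Genes that fell most included Dnah12, a dynein heavy chain gene, which ranged from 4.5 to 16.2 CPM in CON (median 12) and from 0.32 to 2.74 CPM in SUS libraries (median 1.65) (-2.87 ± 0.56, adjusted p = 0.00234). Arhgap29, a RhoA regulator gene, ranged from 6.69 to 16 CPM in CON (median 11.7) and from 0 to 2.77 CPM in SUS libraries (median 1.83) (-2.86 ± 0.68). Cers4, a ceramide synthase gene, Inpp4b, a phosphoinositide phosphatase gene, and Rgl1 had -2.84 ± 0.62, -2.70 ± 0.73 and -2.14 ± 0.47. Tmem26, Crim1, Nfe2l3, Rnf150 and Ifi213 had -2.45 ± 0.53, -2.01 ± 0.43, -1.87 ± 0.52, -1.67 ± 0.43 and -1.55 ± 0.34. Of these 10 falling genes, 8 had CON medians between 9.41 and 12.8 CPM.

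Ly6C-low monocytes of SUS and CON mice were the other monocyte class compared. Of 19521 genes tested there, 31 rose and 16 fell, and the median of all genes was -0.005. The difference between the classes was tested directly, as an interaction over 34 libraries (4 of them Ly6C-low CON), and passed for 2 of 21178 genes (0.00944%), while 2844 had an unadjusted p under 0.05. In simulated data this test called only 10 of 100 genes changed by 1 on the log2 scale, so few calls do not show that the classes changed alike. It treats the libraries as independent, and the labels do not say whether both classes came from the same mice. L1cam, a cell adhesion gene, ranged from 36.8 to 48.3 CPM in CON (median 44.3) and from 9.97 to 27.3 CPM in SUS libraries (median 21.2) in Ly6C-high monocytes without overlap (-1.11 ± 0.19), had 0.08 ± 0.12 in Ly6C-low monocytes, and differed by -1.20 ± 0.22 (adjusted p = 0.0406). Eif3l, a translation initiation factor gene, ranged from 88.1 to 111 CPM in CON (median 93.7) and from 134 to 194 CPM in SUS libraries (median 164) (0.77 ± 0.13), had -0.15 ± 0.11 in Ly6C-low monocytes, and differed by 0.92 ± 0.17 (adjusted p = 0.0406). These genes were named after their values were seen, because they were the ones that passed.

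For the lists, the Ly6C-low medians are set beside those of Ly6C-high monocytes without a test of the difference. They were 0.21 against 0.85 for cytosolic ribosomal proteins, 0.20 against 0.95 for complex I, 0.20 against 0.67 for the proteasome and 0.23 against 0.61 for lysosomal genes. For MHC class II they were -0.81 against -0.49, for type I interferon genes 0.17 against -0.28 and for chromatin regulators -0.04 against -0.23. Red cell markers had medians of 1.05 and 2.05. Of single genes, Hp had 2.00 ± 0.43 in Ly6C-low monocytes, Fcgr1 1.20 ± 0.18, Nfil3 1.08 ± 0.30 and H2-Aa -1.02 ± 0.37, against 1.77 ± 0.26, 1.17 ± 0.21, 1.23 ± 0.22 and -1.05 ± 0.21 in Ly6C-high monocytes. In edgeR's test within Ly6C-low monocytes Fcgr1 passed (adjusted p = 0.00178), whereas Hp and H2-Aa did not (adjusted p = 0.0883 and 0.351). Gbp9 had -0.001 ± 0.11 against -1.29 ± 0.22, and Ccr1 0.40 ± 0.67 against 2.26 ± 0.35. Neither of these differences passed the interaction test (adjusted p = 0.0836 for Gbp9).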

How the data were processed

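The authors aligned reads of sorted leukocyte RNA, prepared as stranded total RNA libraries, with HISAT2 to mm10 and counted them per gene with HTSeq; their own tests used DESeq2. The deposited table holds raw counts for 52636 genes, and the strand setting of the counting is not given in the sources used here. From these counts, edgeR 4.0.16 (R 4.3.3) fitted the quasi-likelihood test to the 18 Ly6C-high libraries, 6 of them RES, with TMM factors and edgeR's own low-count filter. SUS was contrasted with CON, and p-values were Benjamini-Hochberg adjusted over all genes tested. DESeq2 1.42.0 was an alternative. CPM, the usual unit of scaled counts, were computed here from library totals multiplied by the TMM factors. They are therefore not shares of the raw library total, unlike the percentages. In SUS replicate 5, red cell genes took 0.729% of raw counts, whereas their summed level was 8888 CPM. Replicate numbers follow accession order and pair nothing, no library pair was identical, and p-values measure the spread between these libraries, which may be technical. The members and lists were chosen with earlier results of these data known.

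Genes were named by a fixed rule, with exceptions stated where they occur. From a list, these were up to 4 rising and 4 falling members that passed in all 12 fits leaving out 1 library. Otherwise its 2 members of highest level were named. Outside the lists, they were the 10 largest rises and falls with a mean of at least 5 CPM. These also had to pass both thresholds in all 12 fits and show no overlap between the groups. Their separation was therefore set by the rule. For list members, the choice by smallest p favoured separation too, so a lack of overlap adds nothing to their p-values. The share of all genes without overlap is not given here. Overlapping genes and near-identical copies can share reads. Coordinates are from GENCODE M21 (GRCm38), promoter sequences from RefSeq (GRCm38.p6). The length and GC offset over protein-coding genes, and list counts without SUS replicate 5, were added after seeing the data. The test was checked on simulated data, where 32 of 100 genes changed by 1 on the log2 scale and 52 of 100 changed by 2 were called. For the interaction with Ly6C-low monocytes these counts were 10 and 28 of 100. In the simulation of the main comparison no other of 16120 genes was changed, and 2 unchanged genes were called. The share changed was below that called in the data, so its detection rates need not carry over. A few genes chosen this way are left out of the text.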

Additional observations from a re-analysis of the deposited data

Results flagged for a closer look

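Of 126 groups of 6 libraries examined, 13 held a library far from the other 5 by Dixon's test, and chance alone flags about 1 in 20. For SUS replicate 5 these were Actb at 22820 CPM, Cyba at 989.5 CPM, Eif2b2 at 85.3 CPM, the red cell share of 0.729% and the first principal component at 126.7. Fkbp5 in SUS replicate 3 stood at 43.8 CPM and Hpgd in SUS replicate 6 at 184 CPM. Among CON libraries, Ier3 in replicate 1 stood at 2.15 CPM, H2-Aa in replicate 3 at 119 CPM, Gcnt2 in replicate 3 at 23.9 CPM, Psmb1 in replicate 4 at 39.1 CPM, Atp5j in replicate 6 at 68.9 CPM and the second principal component of replicate 4 at -88.9.

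The change between SUS and CON differed between Ly6C-high and Ly6C-low monocytes, by the interaction test of edgeR, for L1cam (difference of log2 fold changes -1.20, adjusted p = 0.0406) and Eif3l (0.92, adjusted p = 0.0406).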

How the results depend on the processing

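Against 1488 genes higher and 651 lower in SUS (387 and 198 past the fold threshold as well), a red cell covariate left 1 and 1 (1 and 1), and a platelet covariate 40 and 5 (33 and 4). DESeq2 gave 1321 lower (401) and the filter of 10 counts 977 lower. The length and GC offset over all genes gave 285 lower (103), and that over protein-coding genes, chosen after seeing the data, 902 higher and 382 lower (212 higher). Leaving out 1 library gave 956 to 1736 higher, 315 to 1006 lower, 163 to 530 higher past the fold threshold and 108 to 363 lower past it. The higher counts were lowest without SUS replicate 5, and the lower counts moved by over 1.5 times without CON replicate 1 (378), CON replicate 2 (424), CON replicate 6 (315) and SUS replicate 6 (1006). The interaction passed for 2 genes, for 20 with all 70 libraries and for 4 with no low-count filter. Zeb2 changed sign, to 0.139 with the offset over all genes and 0.021 with that over protein-coding genes. Apart from what the covariates, offsets and fewer samples or genes do by construction, the cause was not tested. No paired analysis was possible because the labels give no replicate numbers shared between groups. The 6 libraries a group and their depth limit calls for low genes.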
